A study of Mus musculus with 2 samples.

Results

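Exosomes of colon cancer cells were examined here for 10 mature miRNAs that mark the epithelium and the stroma of the colon. The epithelial set of 8 held mmu-miR-200a-3p, mmu-miR-200b-3p, mmu-miR-200c-3p, mmu-miR-141-3p and mmu-miR-429-3p of the miR-200 family, with mmu-miR-192-5p, mmu-miR-194-5p and mmu-miR-215-5p. The stromal set of 2 held mmu-miR-143-3p and mmu-miR-145a-5p, and the prefix for mouse is left out from here on. They were picked by name for the cell types in which they are known, out of 1915 distinct mature miRNAs listed in each library. Cell type names given to miRNAs here say where they are known and not which cells were present. Both libraries came from cultures of one cell line. Small RNA had been sequenced from vesicles of CT26, an undifferentiated colon carcinoma line of the Balb/C mouse strain, in 2 states with 1 library each. Parental CT26 cells were grown in complete DMEM with serum, which was depleted of exosomes for the collection. CT26 spheres, which the study calls sphere-derived cancer stem cells (SDCSCs), were expanded for 2 weeks in DMEM/F12 with 10 ng/ml EGF, 10 ng/ml bFGF and N2 but without serum. The study's methods place the collection of sphere medium for exosomes from the end of these 2 weeks onward. The comparison asks which miRNAs differ between vesicles of the bulk line and of its stem-like spheres. Both states come from one cell line, and the medium changed along with the state, so that state, medium and preparation cannot be told apart.

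MicroRNAs are short RNAs that pair with mRNAs mainly through bases 2 to 8 of their 5′ end, the seed, and lower the output of these mRNAs. The miR-200 family keeps epithelial cells epithelial by repressing Zeb1 and Zeb2, transcription factors of the epithelial-mesenchymal transition (EMT), and its loss is a usual mark of mesenchymal cells. The miRNAs miR-192, miR-194 and miR-215 are abundant in the lining of the intestine, while miR-143 and miR-145 are made from a shared cluster and in the colon belong mainly to smooth muscle cells and fibroblasts.

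The mature sequences are shown because the members fall into groups by seed, and because near-identical members can exchange reads during counting. Of the 10 members, 8 were matched in RefSeq (GRCm38.p6), and each sequence is written 5′ to 3′ with the seed in capitals.
miR-200b-3p: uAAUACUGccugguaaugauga
miR-200c-3p: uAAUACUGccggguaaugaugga
miR-429-3p: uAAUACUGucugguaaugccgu
miR-200a-3p: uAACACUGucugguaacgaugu
miR-141-3p: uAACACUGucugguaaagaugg
miR-192-5p: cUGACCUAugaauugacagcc
miR-215-5p: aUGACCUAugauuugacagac
miR-194-5p: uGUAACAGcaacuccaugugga
The first 3 share one seed and the next 2 another, and the seeds differ in 1 base. Counted from 1 at the 5′ end, miR-200b-3p differs from miR-200c-3p by U11G and A22G, and from miR-429-3p by C9U, A19C, U20C and A22U. miR-200a-3p differs from miR-141-3p by C17A and U22G. miR-192-5p and miR-215-5p share a seed and differ by C1A, A12U and C20A. No other miRNA of the RefSeq table carried any of these 4 seeds. The study's methods say that read counts shared between small RNA features entered the normalisation where reads mapped to several places. Whether the miRNA table was made in that way, and how it divided reads among such relatives, is not given in the sources used here.

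The epithelial members come from 4 short clusters, in which neighbouring precursors can be cut from one transcript. Mir200b, Mir200a and Mir429 lie on the minus strand of chromosome 4 within 1846 bases (chr4:156053905-156055750), in an intron of Ttll10 on the same strand. Mir200c and Mir141 lie on the minus strand of chromosome 6 within 477 bases (chr6:124717914-124718390), in introns of the noncoding gene Gm15884. Mir194-2 and Mir192 lie on the plus strand of chromosome 19 within 290 bases (chr19:6264643-6264932) and overlap no other annotated gene. Mir194-1 and Mir215 lie on the plus strand of chromosome 1 within 374 bases (chr1:185313319-185313692), opposite an intron of Iars2, and Mir215 overlaps an exon of the noncoding gene 2010103J01Rik. The mature miR-194-5p is the same from Mir194-1 and Mir194-2. Printed with the counted arm in capitals are the precursor of the epithelial member with the most parental reads, its cluster neighbour, and the precursors of the epithelial members with any read in SDCSC exosomes.
Mir192: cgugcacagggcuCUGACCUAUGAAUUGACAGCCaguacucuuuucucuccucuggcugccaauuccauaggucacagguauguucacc
Mir194-2: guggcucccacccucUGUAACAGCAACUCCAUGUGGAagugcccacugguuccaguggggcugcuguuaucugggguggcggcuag
Mir200b: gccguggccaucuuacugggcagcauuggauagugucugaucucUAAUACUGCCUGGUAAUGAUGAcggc
Mir429: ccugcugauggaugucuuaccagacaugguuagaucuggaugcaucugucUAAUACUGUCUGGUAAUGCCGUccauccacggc

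Levels are given as reads and as shares of the miRNA reads of a library. The authors deposited RPM values, from which whole reads were recovered, 32162 in parental and 3964 in SDCSC exosomes when each miRNA name is counted once. The parental library was therefore 8.11 times as deep. Names with an identical sequence, such as miR-199a-3p and miR-199b-3p, each entered these totals. The effect of this on shares and calls was not tested. The detection floor was set at 3 reads, which is 0.00933% of the parental and 0.0757% of the SDCSC total. For 0 reads the 95% Wilson interval ends above it, at 0.0119% in parental and 0.0968% in SDCSC exosomes. A miRNA needs 24.3 parental reads for its parental share to reach the SDCSC floor. Intervals of shares are 95% Wilson intervals, those of ratios (SDCSC over parental share) are exact conditional 95% intervals, and all cover counting error only. With no replicate, Fisher's exact test on reads says whether these 2 libraries differ beyond counting error, and says nothing of the spread between cultures.

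The stromal miR-143-3p was the only one of the 10 that was abundant, and its share was higher in SDCSC exosomes. The other stromal member, miR-145a-5p, was at 0 reads in SDCSC exosomes, as were miR-192-5p, miR-194-5p and miR-215-5p. The miR-200 family had no read in parental exosomes and 2 reads in SDCSC exosomes. In pooled vesicles, fewer vesicles that carry a miRNA and fewer copies in each cannot be told apart. In parental exosomes 4 of the 10 members reached the floor, miR-143-3p, miR-192-5p, miR-145a-5p and miR-194-5p, and in SDCSC exosomes only miR-143-3p did. Among all miRNAs listed, 11.2% reached the floor in parental and 3.60% in SDCSC exosomes. To be called, a miRNA had to differ at least 1.5-fold in share and to have a p under 0.05 once adjusted over the 336 miRNAs that had a read. By this rule 14.0% of the 336 were called, 4.76% higher and 9.23% lower in SDCSC exosomes. Of the 7 members with a read, 1 was higher (miR-143-3p) and 0 were lower, and with so few members these counts are not set apart from that background.

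**Figure D1:**
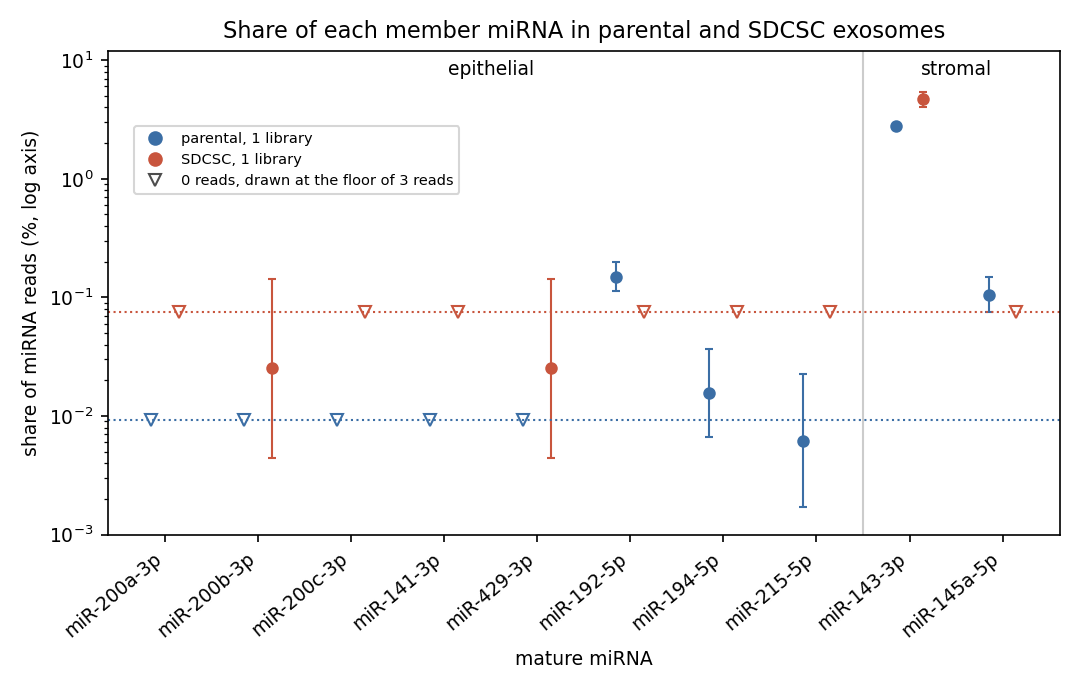
Share of miRNA reads (%, log axis) of each of the 10 members in the 1 parental and the 1 SDCSC library; bars are 95% Wilson intervals, dotted lines the floors of 3 reads, and open triangles stand for 0 reads. miR-143-3p lies above 1% in both libraries, and no other member has a SDCSC share above the floor.

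miR-143-3p, which in smooth muscle promotes the contractile state, had 888 reads in parental and 185 reads in SDCSC exosomes, deposited as 24252 and 40287 RPM. It made up 2.76% of miRNA reads in parental exosomes (2.59 to 2.95%) and 4.67% in SDCSC exosomes (4.05 to 5.37%), so the intervals did not overlap. At the parental share, 109 reads would have been counted in the SDCSC library. The ratio of shares was 1.69 (1.43 to 1.98), a log2 ratio of 0.76 (0.52 to 0.99), with an adjusted p of 9.88e-09 in Fisher's exact test. It was the ninth most abundant miRNA of parental exosomes and the sixth of SDCSC exosomes. The rise was larger than counting error and smaller than 2-fold. It passed under every scaling tried except raw reads compared without regard to depth, where the log2 ratio was -2.26. Of the 68 miRNAs whose reads summed to 50 or more, 8 had 0 SDCSC reads, and 8 had a higher ratio than miR-143-3p. The median log2 ratio was -0.57 over the 60 with a read in both libraries and -0.81 over the 68 with 0 reads set to the floor. Over the 116 miRNAs with a read in both libraries at any depth, a set that likewise needs a read in the shallower library, the median was 0.06 and 40 were higher.

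miR-145a-5p, transcribed with miR-143 and likewise a smooth muscle miRNA, had 34 reads in parental and 0 reads in SDCSC exosomes. Its parental share of 0.106% (0.0757 to 0.148%) would have given 4.19 reads in the SDCSC library. Against the floor it was 1.40-fold lower in SDCSC exosomes. Such a fold takes in no counting error of either library. The exact interval of the ratio, which does, reached 0.930, close to 1. Fisher's exact test gave p = 0.0471 before and 0.243 after adjustment, so the difference did not pass. The pair therefore gave a call for one member and none for the other.

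Within each library, miR-145a-5p can be set against miR-143-3p with no scaling to the total. It took 3.69% of the reads of the pair in parental exosomes (34 of 922 reads, 2.65 to 5.11%). In SDCSC exosomes it took 0 of 185 reads, with the floor at 1.62% and an upper Wilson bound of 2.03%. There were 26.1 reads of miR-143-3p for each read of miR-145a-5p in parental exosomes. These intervals did not overlap, and the difference was not tested because it was looked at with the reads known. The pooled reads of the pair, 922 and 185, are nearly all miR-143-3p, and their ratio was 1.63 (1.38 to 1.91).

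miR-192-5p had the most reads of the epithelial members. This miRNA, induced by p53 and by the hepatocyte nuclear factors of gut and liver, had 48 reads in parental and 0 reads in SDCSC exosomes. Its parental share was 0.149% (0.113 to 0.198%), at which 5.92 reads would have been counted in the SDCSC library. It was 1.97-fold lower against the floor, again with no counting error taken in, and the exact interval of the ratio reached 0.648. Fisher's exact test gave p = 0.00854, and p = 0.0574 after adjustment, just outside the threshold. That call turned on the settings. In the same test with totals over all entries the adjusted p was 0.0374. By this test miR-192-5p also passed with summed entries, and when miRNAs under 10 reads in all were left out. With the median of ratios and TMM, miR-192-5p passed by an exact binomial test. Without the most abundant miRNA of each library it did not pass, with an adjusted p of 0.0875 by an exact binomial test.

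miR-194-5p, made beside miR-192 and beside miR-215, was listed at 2 precursors with 4 and 5 reads in parental exosomes and with 0 reads at each in SDCSC exosomes. miR-215-5p, which shares the seed of miR-192-5p, had 2 reads in parental exosomes, under the floor, and 0 reads in SDCSC exosomes. Their parental shares, 0.0155% (0.00664 to 0.0364%) and 0.00622% (0.00171 to 0.0227%), lie below what the SDCSC library could show, with 0.616 and 0.247 reads expected there. A lower share of either was not detectable at this depth. The 3 miRNAs together had 55 reads against 0, with 6.78 reads expected at the parental share and an upper bound of the ratio of 0.563. miR-192-5p took 87.3% of these 55 reads (76.0 to 93.7%).

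The members of the miR-200 family were at or near 0 in both libraries. In parental exosomes all 5 members had 0 reads out of 32162, with an upper Wilson bound of 0.0119% for the share of each. In SDCSC exosomes miR-200b-3p and miR-429-3p had 1 read each, at 218 RPM, and miR-200a-3p, miR-200c-3p and miR-141-3p had 0 reads out of 3964. Both reads fell on the chromosome 4 cluster and on the seed AAUACUG, and the chromosome 6 cluster had none in either library. A single read is a share of 0.0252% (0.00445 to 0.143%), under the SDCSC floor. For each of the pair Fisher's exact test gave p = 0.110 and an adjusted p of 0.424, and no ratio is given because both libraries were under their floors. The defining miRNA family of epithelium was thus at 0 reads in the deeper library of a line labelled as colon cancer, and miRNAs of the cells themselves were not analysed here.

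Pooled over the 8 epithelial members there were 55 reads in parental and 2 reads in SDCSC exosomes, or 0.171% (0.131 to 0.223%) and 0.0505% (0.0138 to 0.184%). The ratio was 0.295, with an interval from 0.0349 to 1.12 that includes 1. The parental reads all came from miR-192, miR-194 and miR-215, and the SDCSC reads all from the miR-200 family. The pooled ratio thus sets reads of different miRNAs against each other, and the 2 SDCSC reads give no direction for the miR-200 family. The exact interval ended at 0.563 for miR-192, miR-194 and miR-215 together. For the pooled miR-200 family it began at 1.52, but this rests on 2 SDCSC reads, under the floor. Among the reads of the 10 members, those of the epithelial set made up 5.63% in parental (4.35 to 7.26%) and 1.07% in SDCSC exosomes (0.294 to 3.82%). The remainder were reads of miR-143-3p and miR-145a-5p. The order by share in parental exosomes was miR-143-3p, then miR-192-5p and miR-145a-5p, whose intervals overlap, then miR-194-5p and miR-215-5p, whose intervals overlap too. In SDCSC exosomes miR-143-3p came first and the others could not be ordered.

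**Figure D2:**
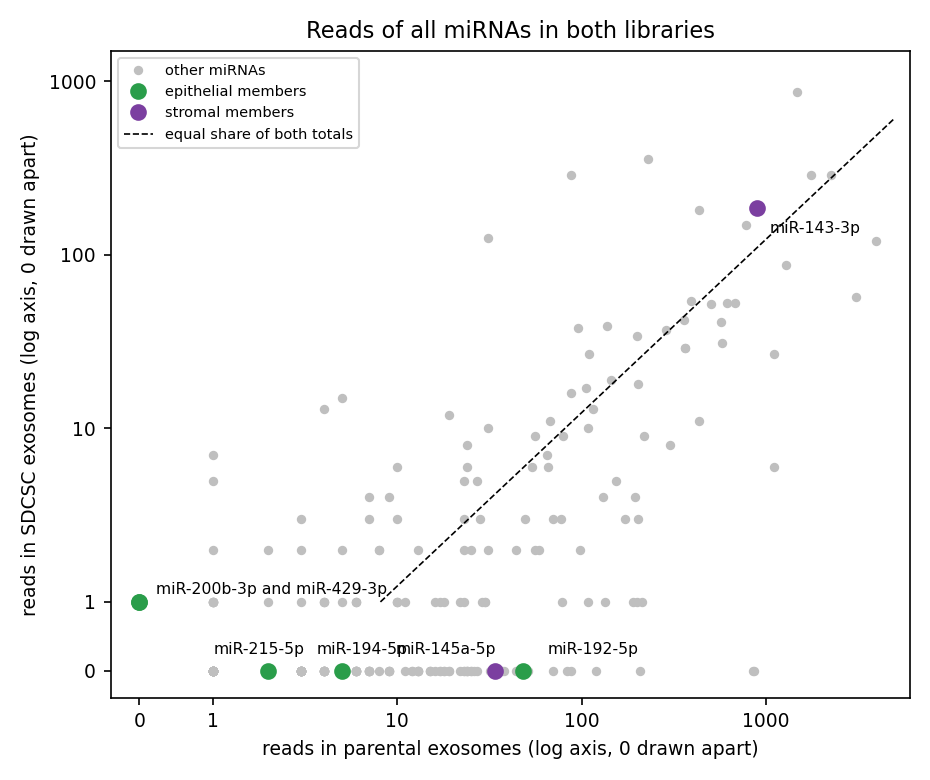
Reads of the 336 miRNAs with any read in the parental (x axis) and the SDCSC library (y axis), both log axes with 0 drawn apart; the dashed line marks equal shares of both totals. miR-143-3p lies above the line, while miR-192-5p, miR-145a-5p, miR-194-5p and miR-215-5p lie on the row of 0 SDCSC reads among many other miRNAs.

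Absence from the SDCSC library was common at such parental levels. Of the 40 miRNAs with 20 to 60 parental reads, 45.0% had 0 reads in SDCSC exosomes. This range was chosen to hold miR-192-5p and miR-145a-5p, and both are counted in it. miR-192-5p, with 48 parental reads, lies in its upper part, where 0 SDCSC reads are less likely by counting alone. The 0 reads of these members are therefore not read as particular to them.

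The opposite arms of the precursors, which are usually degraded, were close to 0. Of 11 such arms, miR-145a-3p had 2 reads and miR-194-2-3p had 1 read in parental exosomes, and the other 9 had none. In SDCSC exosomes 0 of the 11 had a read. The opposite arm miR-143-5p had 0 reads in both libraries, beside 888 and 185 reads of miR-143-3p. For miR-145a, the 3p arm took 5.56% of the 36 reads of both arms in parental exosomes (1.54 to 18.1%).

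Other miRNAs of the same cell types were read beside the members. Of 6 further epithelial miRNAs, miR-31-5p was higher in SDCSC exosomes, with 96 reads (0.298%) in parental and 38 reads (0.959%) in SDCSC exosomes. miR-31 is an epithelial miRNA that is often raised in colorectal cancer, and its ratio was 3.21 (2.15 to 4.72; adjusted p = 3.95e-07, Fisher's exact test). miR-182-5p had 6 reads against 1 and miR-183-5p had 4 against 0, from a cluster shared with miR-96-5p, which had none. miR-203-3p and miR-375-3p, known from squamous epithelium and from endocrine cells, had 0 reads in both libraries. Thus 1 of the 3 with a read was higher and 0 were lower, beside 4.76% and 9.23% of all miRNAs with a read.

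Of 5 further stromal miRNAs, 0 were called in either direction. All but miR-199a-3p had 31 or fewer parental reads, so a rise as small as that of miR-143-3p could have gone uncalled. miR-199a-3p, a fibroblast miRNA, had 365 reads in parental and 29 reads in SDCSC exosomes, with a ratio of 0.645 (0.426 to 0.942; adjusted p = 0.114, Fisher's exact test). The identical mature miR-199b-3p, added with its values known, was listed with 364 and 29 reads, so the reads of these genes cannot be separated. The opposite arm miR-199a-5p had 23 and 5 reads, with a ratio of 1.76 and an interval (0.524 to 4.74) that includes 1. miR-214-3p, made with miR-199a, had 31 and 2 reads, miR-218-5p had 16 and 0, and miR-199b-5p had 6 and 1. With their reads pooled, the 5 gave a ratio of 0.681 (0.473 to 0.953), against 1.69 for miR-143-3p, and the intervals did not overlap. This pool was mostly miR-199a-3p, which gave 365 of the 441 parental and 29 of the 37 SDCSC reads and was not called. By themselves miR-199a-5p (1.76) and miR-199b-5p (1.35) had ratios above 1 and miR-214-3p (0.523) below 1. The intervals of these and of miR-218-5p included 1. Of the reads of miR-143-3p and these 5 together, miR-143-3p took 66.8% in parental (64.2 to 69.3%) and 83.3% in SDCSC exosomes (77.9 to 87.7%).

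**Figure D3:**
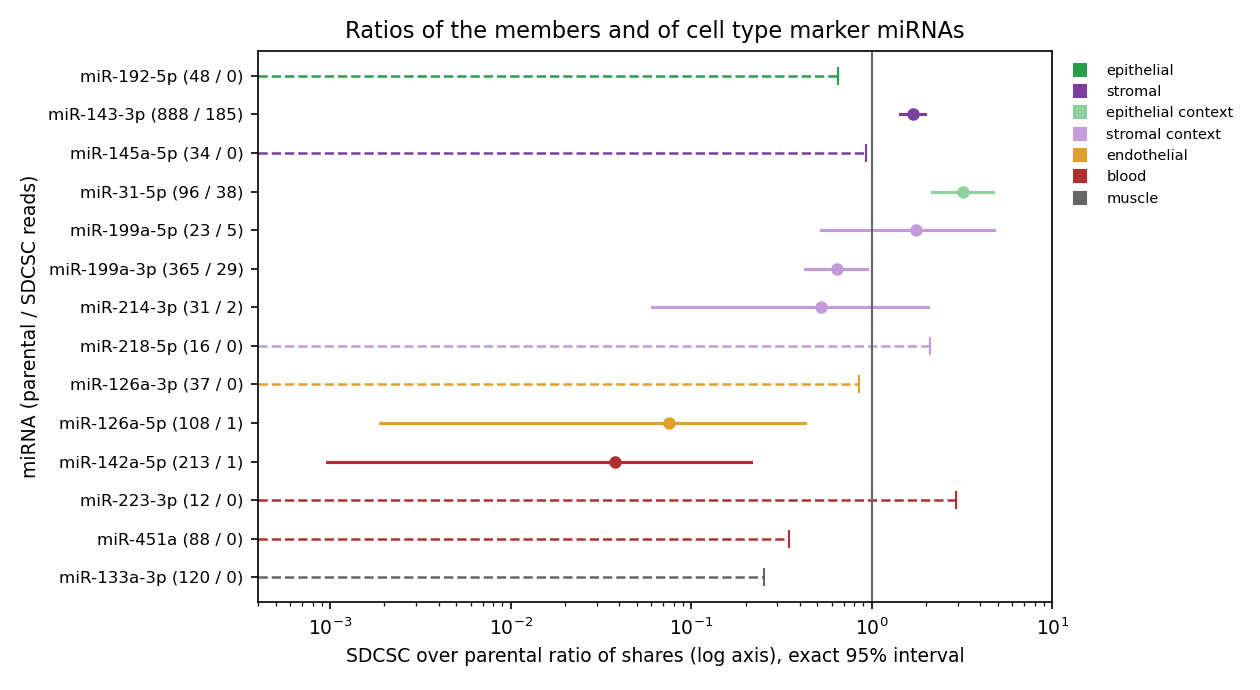
SDCSC over parental ratio of shares (log axis) for members and cell type marker miRNAs with 10 or more reads in all; points are ratios, bars exact 95% intervals, and dashed bars end at the upper bound where SDCSC exosomes had 0 reads, with the further markers listed as context. miR-143-3p and miR-31-5p lie above 1 with their whole interval.

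Markers of vessels, blood and muscle had fewer reads in SDCSC exosomes than their parental share would give, the direction opposite to miR-143-3p. Of 12 such miRNAs, 11 had a read in parental exosomes, with 607 reads in all (1.89%, 1.74 to 2.04%), and 2 had a read in SDCSC exosomes, with 2 reads in all (0.0505%, 0.0138 to 0.184%). Of the 11 with a read, 4 were lower in SDCSC exosomes and 0 were higher, beside 9.23% and 4.76% of all miRNAs with a read. They were the endothelial miR-126a-5p (108 against 1 read), the leukocyte miR-142a-5p (213 against 1), the erythroid miR-451a (88 against 0) and the muscle miR-133a-3p (120 against 0). Many of the 336 miRNAs with a read had too few reads to be called lower, so the 9.23% is not matched to these 4 in depth. miR-126a-3p, with 37 parental reads, and miR-223-3p, with 12, were also at 0 reads in SDCSC exosomes, but neither was called. The 12 reads of miR-223-3p lie under the 24.3 parental reads needed to reach the SDCSC floor. miR-145a-5p and miR-192-5p, neither of them called, were likewise at 0 reads in SDCSC exosomes, as were many miRNAs at such parental levels. Whether their 0 reads are linked to those of the markers was not tested. The rise of miR-143-3p was opposite in direction to the markers, and this was not tested further.

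**Figure D4:**
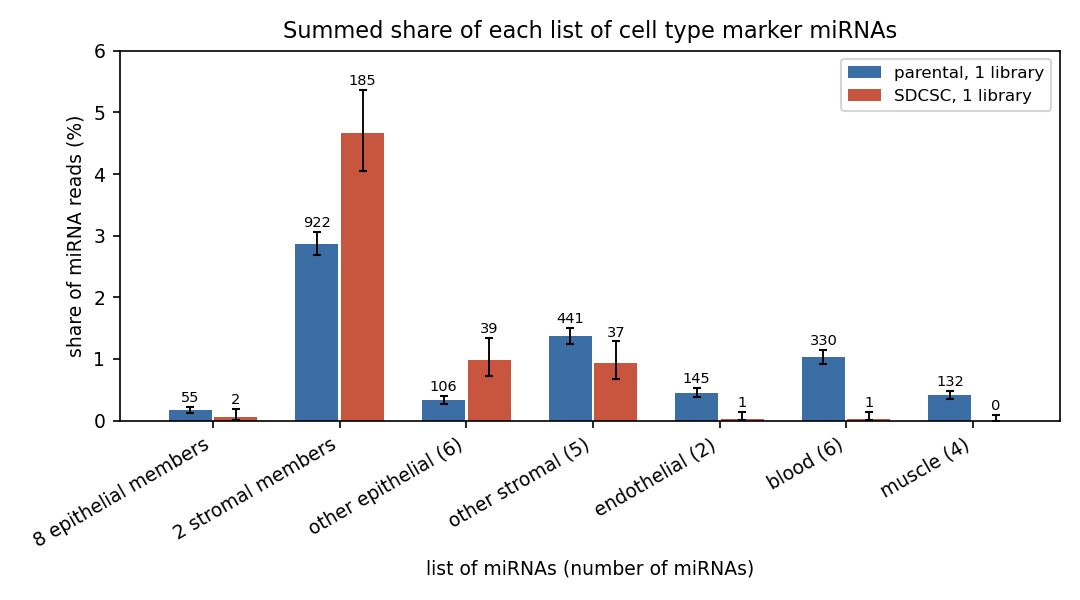
Summed share of miRNA reads (%) of the 8 epithelial and 2 stromal members and of 5 lists of other marker miRNAs in the parental and the SDCSC library, with 95% Wilson intervals and the summed reads above each bar. The stromal pair, nearly all of it miR-143-3p, has 922 of 32162 and 185 of 3964 reads, while the endothelial, blood and muscle lists have 145, 330 and 132 reads in the parental and 1, 1 and 0 in the SDCSC library.

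By ratio, the miRNAs most like miR-143-3p among those with 50 or more reads in all and a read in both libraries were miR-10a-5p, let-7e-5p and miR-27a-3p. Likeness was the difference of log2 ratios over the 2 libraries, and is a description only. miR-10a-5p had 774 and 148 reads and a log2 ratio of 0.63. let-7e-5p had 87 and 16 reads and a log2 ratio of 0.58, whose interval (-0.29 to 1.36) includes 0. miR-27a-3p had 110 and 27 reads and a log2 ratio of 0.99.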

How the data were processed

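Small RNA of 18 to 40 nucleotides from CT26 exosomes had been sequenced in 1 parental and 1 SDCSC library. The authors clipped adapters and dropped reads under 18 nucleotides with Trimmomatic, and deposited RPM values for mature miRNAs at each precursor, scaled to the reads of all entries. The labels name mm10. The study's methods name ncPRO-seq for the small noncoding RNA content of exosomes. Whether it made the miRNA table, and which miRBase release was used, is not given in the sources used here. One read was worth 27.31 RPM in the parental and 217.77 RPM in the SDCSC library, and 100% of values above 0 were whole multiples of it within 0.01 RPM after rounding of the total. Reads over all entries summed to 36615 and 4592. A miRNA listed at several precursors (83 of 1915) was given its highest entry. A test on a log scale needs replicates, so the recovered reads were tested: Fisher's exact test, two-sided, set each miRNA against all other reads, and p-values were adjusted by the Benjamini-Hochberg method over 336 miRNAs. It called 16 miRNAs higher and 31 lower. Where one library had 0 reads, the fold was taken against the floor of 3 reads.

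The members and lists were chosen with earlier results of these data known. The miRNAs named are the 10 members, their opposite arms with a read, marker miRNAs with at least 10 reads (others are given by count or at few reads), and the 3 nearest in ratio to the member with most reads. Median-of-ratios scaling, TMM factors of edgeR 4.0.16 (R 4.3.3), raw reads, other totals, sums of entries, other filters and thresholds were tried. Scripts were tested on simulated data. Sequences are from RefSeq (GRCm38.p6) and overlapping genes from GENCODE. Python 3.11.15, scipy 1.17.1, pandas 2.3.3, numpy 2.4.6 and matplotlib 3.10.9 were used.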

Additional observations from a re-analysis of the deposited data

How the results depend on the processing

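No paired analysis was possible because there is only 1 library a condition. Relative to the totals used, log2 ratios moved by -0.03 with totals over all entries, by -0.06 under the median of ratios and under TMM, by 0.17 with totals without the most abundant miRNA, and by -3.02 with no library scaling. Sums of entries moved the scaling by -0.03 and changed the reads of miRNAs listed at several precursors, with the pooled epithelial members at -1.89 in place of -1.76. Except with no library scaling, miR-143-3p stayed higher and past the threshold (log2 ratio 0.70 to 0.92). No library scaling leaves the 8.11-fold difference in depth in place. There miR-143-3p was at -2.26 and the stromal pair at -2.32, and miR-145a-5p passed as lower (-3.50 against the floor). Without scaling 3 miRNAs in all were higher and 134 lower, and 0 members were higher and 3 lower. miR-192-5p was at -0.98 against the floor, with an adjusted p of 0.0574 by Fisher's exact test. By the same test it passed as lower with totals over all entries (-1.0, 0.0374) and summed entries (-1.0, 0.0344). By an exact binomial test it passed with TMM and the median of ratios (both -1.04, 0.0358), and without scaling (-4). Thus 1 member was lower under each of these but the last, and when miRNAs under 10 reads in all were left out. The adjusted p of miR-192-5p ranged from 4.26e-14 to 0.0875 (Fisher's exact or exact binomial test). At a fold threshold of 2, 0 members were higher, since the ratio of miR-143-3p is below 2. At a floor of 1 read, 3 members were seen in SDCSC exosomes. Apart from the scaling factor and the threshold itself, the cause of these changes was not tested. The SDCSC depth of 3964 reads limits every statement on miRNAs at 0 there.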
